A study of Homo sapiens with 12 samples.

Results

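The collagen chain genes encode the α chains of the collagens, the main structural proteins of the extracellular matrix. All names on the array that read COL, a number, A and a number were taken, which gave 70 probes of 43 genes among 47228 probes. They were followed in 2 human pancreatic adenocarcinoma cell lines, MIA PaCa-2 and Capan-1, in which focal adhesion kinase (FAK, encoded by PTK2) was knocked down. Each line carried a doxycycline-inducible (Tet-on) hairpin in a pLKO.1 vector, namely shCtrl as control or 1 of 2 that target FAK. The labels call these sh1209 and sh1319, except that Capan-1 labels read shFAK1319, which was taken as sh1319. All groups, shCtrl included, were given doxycycline (50 ng/ml, 96 hours) and kept in puromycin, which was 3.5 ug/ml in the MIA PaCa-2 lines and 1.5 ug/ml in the Capan-1 lines. From each sample 500 ng of RNA was used, with 2 arrays for each of the 6 groups. Whether the 2 arrays of a group stand for separate cultures is not stated in the labels, so p-values measure only the spread between these arrays, which may be technical.

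The α chains wind around each other into a helix in the endoplasmic reticulum, where enzymes hydroxylate and glycosylate them before secretion. Some collagens are built from 1 kind of chain and others, such as types I, IV, V, VI, IX and XI, from different chains that need each other. Fibrillar collagens form the fibres of the stroma that surrounds pancreatic carcinomas, and network-forming type IV collagen lies in basement membranes. FAK is a kinase that acts below integrins, among which the β1 integrins bind collagen.

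Array medians were 87.7 to 97.0 in deposited intensity, with 16259 to 19814 probes detected (detection p under 0.05). Replicate arrays correlated across probes at 0.991 to 0.994. Values below are normalized log2 intensities, in which the lowest detected signal of an array lay between 4.55 and 4.74. At the main PTK2 probe, 450253, the MIA PaCa-2 arrays read 9.45 and 9.46 with shCtrl, 7.28 and 7.14 with sh1209, and 6.92 and 7.03 with sh1319. The Capan-1 arrays read 10.35 and 10.17, 9.66 and 9.63, and 8.48 and 8.49, in the same order. This probe was lower with both hairpins in both lines, though the fall of 0.61 with sh1209 in Capan-1 was 0.42 with median scaling and then did not pass (limma, adjusted p = 0.23). The other tested PTK2 probe, 2680750, was near background in MIA PaCa-2 and passed with no hairpin, with changes of 0.31 and -0.29 there and -0.46 and -0.46 in Capan-1. By these calls the fall rests on 1 of 2 probes. In Capan-1 both changes at probe 2680750 passed with an offset of 50 (-0.28 and -0.28, limma, adjusted p = 0.037 and 0.041). In the MIA PaCa-2 shCtrl arrays the epithelial genes EPCAM and CDH1 were undetected, and 3, 3 and 2 of 5 epithelial genes were detected in both arrays with shCtrl, sh1209 and sh1319 there, whereas all 5 were in each Capan-1 group. The fibroblast genes PDGFRA, PDGFRB, THY1 and FAP were not detected on any array.

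Most collagen probes lay at the background in these carcinoma cells. Of the 70 probes, 36 were not detected on any of the 12 arrays and 7 on 1 array only. The remaining 27 probes, of 22 genes, were detected on at least 2 arrays and were tested. Since a probe could pass this filter through the group in which it was high, counts and medians over the 27 do not stand for all collagen genes. Genes with no detection on any array were COL2A1, COL4A3, COL4A4, COL4A6, COL5A3, COL6A6, COL8A1, COL9A1, COL10A1, COL15A1, COL19A1, COL21A1, COL27A1, COL28A1 and COL29A1, the last now named COL6A5. COL1A1, COL6A2, COL20A1, COL22A1, COL24A1 and COL25A1 had a probe detected on 1 array only. In MIA PaCa-2 the number of collagen probes detected in both arrays was 9 with shCtrl, 14 with sh1209 and 14 with sh1319. In Capan-1 it was 4 with shCtrl, 7 with sh1209 and 9 with sh1319, but 3, 6 and 5 at a detection p under 0.01. Over all probes the share detected in both arrays ranged from 30.2% to 31.6% in MIA PaCa-2 and from 34.2% to 35.4% in Capan-1. Only COL17A1 probe 990372 and COL8A2 probe 3780168 were detected on all 12 arrays.

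In MIA PaCa-2 every collagen probe that passed the test against shCtrl was higher with the FAK hairpin. With sh1209, 8 of the 27 tested probes rose and 0 fell, or 29.6%, while 18.0% of all 24207 tested probes passed in either direction and 9.05% were higher. With sh1319, 11 rose and 0 fell, or 40.7%, against 24.3% of all tested probes in either direction and 12.2% higher. A gene with more than 1 probe counts more than once here, and the 8 probes were of 6 genes and the 11 of 8, among 22 tested genes. The median log2 change of the tested collagen probes was 0.21 with sh1209 and 0.14 with sh1319, and that of all tested probes was 0.01 and -0.01. Over all 70 collagen probes, with no filter, it was 0.02 and 0.04, and over all probes of the array 0.00 and -0.00. In Capan-1 the shares lay near the background. There 3 probes rose with sh1209 (11.1%, against 16.8% of all probes in either direction and 8.14% higher) and 2 rose with sh1319 (7.41%, against 13.7% and 6.95%), and 0 fell. With a stricter filter (detection p under 0.01 on at least 4 arrays), 2 rose and 1, COL8A2, fell with sh1209 in Capan-1. At an unadjusted p under 0.05 in limma, the MIA PaCa-2 comparisons had 0 (sh1209) and 1 (sh1319) of the 27 lower, and the Capan-1 comparisons 2 and 3. Both hairpins of a line share the shCtrl arrays. In RNA from whole cultures, fewer cells of a kind and less RNA per cell cannot be told apart.

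**Figure D1:**
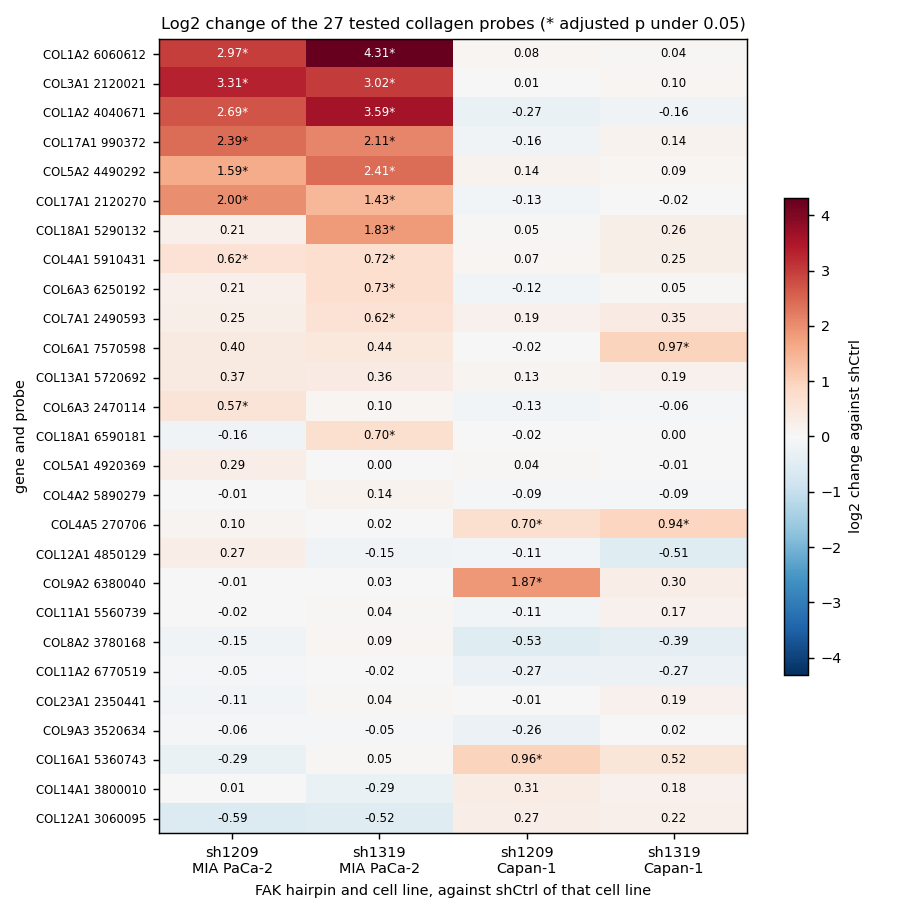
The fitted log2 change against shCtrl of the same cell line is written in each square for the 27 tested collagen probes, red for higher and blue for lower, with an asterisk where the adjusted p was under 0.05. Changes past the test in MIA PaCa-2 reach 4.31 for COL1A2 with sh1319, and none of the asterisked changes is negative.

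Of 6 tested fibrillar genes, COL1A2, COL3A1 and COL5A2 rose with both hairpins in MIA PaCa-2, and COL5A1, COL11A1 and COL11A2 did not pass. COL1A2 encodes the α2 chain of type I collagen, the most abundant collagen of connective tissue, and its probe 6060612 read 6.13 and 6.07 with shCtrl, 9.11 and 9.03 with sh1209, and 10.47 and 10.35 with sh1319. The groups did not overlap, and sh1319 lay above sh1209 on both arrays. The change with sh1319 was 4.31 ± 0.11 (SE), or 19.8-fold (limma, adjusted p = 7.1e-10), and sh1319 exceeded sh1209 by 1.34 ± 0.11 (adjusted p = 7.5e-06). Its other probe, 4040671, read 5.69 and 5.77 with shCtrl, 8.44 and 8.42 with sh1209, and 9.36 and 9.28 with sh1319, a rise of 3.59 ± 0.22 with sh1319 (limma, adjusted p = 4.2e-07). Both COL1A2 probes gave the groups in the same order. At probe 4040671 the step from sh1209 to sh1319, 0.89 (adjusted p = 0.011), did not pass without MIA PaCa-2 sh1319 replicate 1 (0.85, adjusted p = 0.06) or sh1209 replicate 2 (0.88, adjusted p = 0.051). In Capan-1 probe 6060612 was not detected on any array, and probe 4040671 was detected on 1 shCtrl array (5.16) and 1 sh1319 array (4.82). The change of probe 4040671 with sh1209 there was -0.27 and did not pass, or -0.66 without Capan-1 shCtrl replicate 1.

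COL1A1 encodes the α1 chain, of which a type I molecule holds more copies than of α2. Its only probe, 6960142, was detected on 1 array, a MIA PaCa-2 shCtrl array (4.71), and was not tested. On the 4 MIA PaCa-2 arrays with a FAK hairpin it lay between 4.29 and 4.67 and was not detected. Levels of different probes cannot be set against each other, and whether this probe reports COL1A1 was not tested.

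COL3A1, whose product forms type III collagen, a partner of type I in soft tissue, was undetected on the shCtrl arrays of MIA PaCa-2 (4.28 and 4.62). It read 7.81 and 7.70 with sh1209 and 7.40 and 7.54 with sh1319, above both shCtrl arrays. Against the lowest detected signal this was at least 8.26-fold higher with sh1209 (limma, adjusted p = 2.2e-08) and at least 6.78-fold higher with sh1319 (adjusted p = 3.7e-08). No Capan-1 array detected it. Fitted log2 changes near the background depend on its correction, and at this probe that of sh1209 was 3.31, or 1.66 with no background correction and 2.16 with an offset of 50, past the test in each case.

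COL5A2 encodes the α2 chain of type V collagen, which takes part in starting type I fibrils. It was already well above background in MIA PaCa-2, at 7.79 and 7.60 with shCtrl, 9.39 and 9.19 with sh1209, and 10.01 and 10.19 with sh1319. The groups did not overlap. The sh1209 arrays were higher than shCtrl by 1.59 ± 0.13 (limma, adjusted p = 7.7e-06) and the sh1319 arrays by 2.41 ± 0.13 (adjusted p = 1.7e-07). The hairpins differed by 0.81 ± 0.13 (adjusted p = 0.0008). In the annotation of GRCh38.p14, COL5A2 and COL3A1 are neighbours on chromosome 2 with no other protein-coding gene between them. COL5A1, which encodes the α1 chain of type V, read 5.0 and 4.47 with shCtrl, 5.07 and 4.98 with sh1209, and 4.66 and 4.81 with sh1319. These groups overlapped and the changes, 0.29 and -0.00, did not pass. The change with sh1209 was 0.56 (limma, adjusted p = 0.035) without shCtrl replicate 1.

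**Figure D2:**
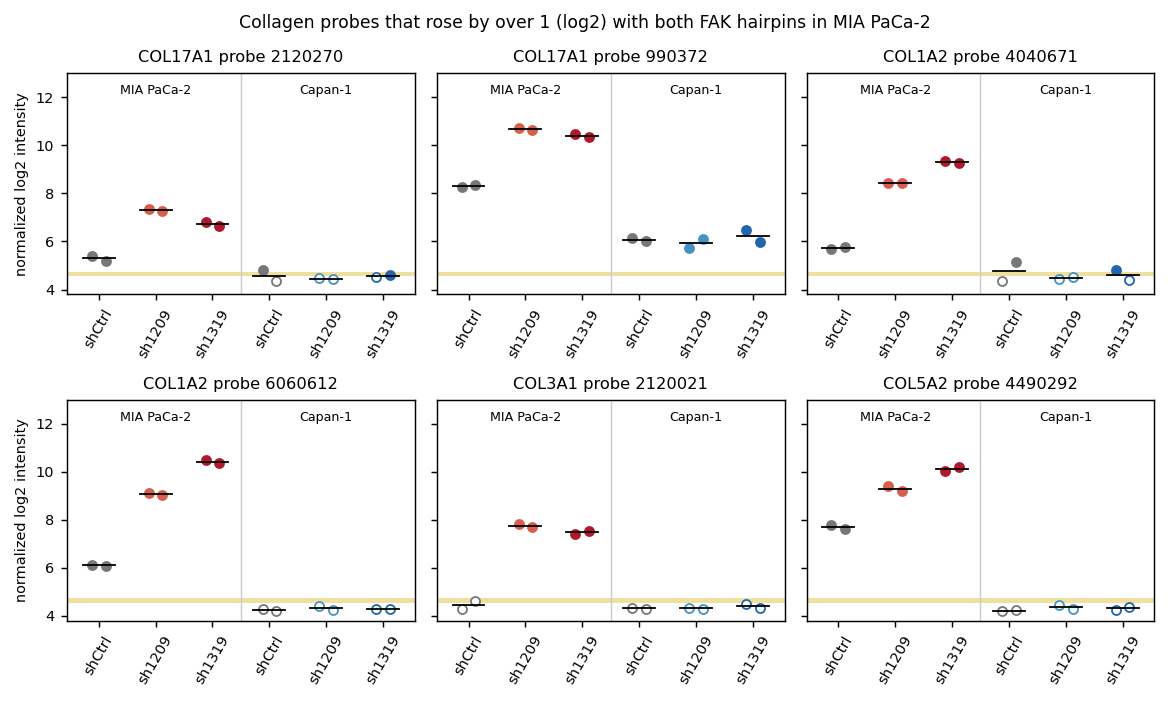
The 6 collagen probes that rose by over 1 on the log2 scale with both hairpins in MIA PaCa-2 are plotted. Each point is the normalized log2 intensity of 1 array, filled where the probe was detected (p under 0.05) and open where it was not. Black lines are means of 2 arrays, and the yellow band spans the lowest detected signal of the 12 arrays, 4.55 to 4.74. In MIA PaCa-2 all FAK hairpin arrays lie above both shCtrl arrays, while in Capan-1 only COL17A1 probe 990372 stands above the band on every array.

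COL17A1 encodes a transmembrane collagen of hemidesmosomes, the junctions by which epithelial cells are anchored to the basement membrane. Probe 990372 read 8.27 and 8.33 with shCtrl in MIA PaCa-2, 10.72 and 10.66 with sh1209, and 10.47 and 10.34 with sh1319. Both hairpins were clear of shCtrl, with rises of 2.39 ± 0.18 (5.25-fold, limma, adjusted p = 3.2e-06) and 2.11 ± 0.18 (4.31-fold, adjusted p = 5.5e-06). Probe 2120270 read 5.40 and 5.21, 7.34 and 7.27, and 6.82 and 6.65 in the same order, with rises of 2.00 ± 0.15 (adjusted p = 3.2e-06) and 1.43 ± 0.15 (adjusted p = 2.9e-05). In contrast to COL1A2 and COL5A2, sh1319 gave the lower level at probe 2120270, by 0.57 ± 0.15 (adjusted p = 0.015). That difference did not pass with median scaling (-0.47, adjusted p = 0.14), nor without MIA PaCa-2 sh1209 replicate 1 (-0.54), sh1209 replicate 2 (-0.60) or sh1319 replicate 2 (-0.48). At probe 990372 the hairpins differed by -0.28 (95% interval -0.67 to 0.10).

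In Capan-1, COL17A1 probe 990372 read 6.16 and 6.0 with shCtrl, 5.73 and 6.12 with sh1209, and 6.49 and 5.96 with sh1319. The groups overlapped, with changes of -0.16 (95% interval -0.55 to 0.22) and 0.14 (-0.25 to 0.53). In the same MIA PaCa-2 arrays the keratin gene KRT19 fell by 1.44 with sh1209 and by 1.47 with sh1319 (limma, adjusted p = 0.00025 and 0.00013). The summed linear signal of the epithelial marker probes was 1915 to 1985 with shCtrl, 1419 to 1533 with sh1209 and 927 to 1027 with sh1319, and its part in the COL17A1 result was not tested.

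The 250 bases before the annotated start of COL17A1 (GRCh38.p14, chr10:104085881-104086130, minus strand, RefSeq) are shown because COL17A1 gave the largest rises among the members with a RefSeq window here, with TATAAA and CCAAT matches in capitals. The latter is on the opposite strand and so reads ATTGG.
COL17A1: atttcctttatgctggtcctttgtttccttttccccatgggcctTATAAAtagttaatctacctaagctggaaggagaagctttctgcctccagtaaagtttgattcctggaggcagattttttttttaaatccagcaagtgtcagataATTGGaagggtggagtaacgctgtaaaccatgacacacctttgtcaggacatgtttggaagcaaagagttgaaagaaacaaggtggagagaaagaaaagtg
The window has 1 match to TATAAA, which 10.7% of all 35116 RefSeq promoter windows hold on either strand, and 1 to CCAAT, held by 32.0%. It has no match to GGGCGG (held by 42.6%), to TGANTCA (6.57%) or to GGAATG (11.9%), and these shares describe letters only. Among the 43 windows of 31 collagen genes, GGGCGG was in 55.8%, CCAAT in 27.9%, TATAAA in 18.6%, GGAATG in 6.98% and TGANTCA in 2.33%. Windows of COL1A1, COL1A2, COL3A1 and COL5A2 were not used here.

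COL4A1, which encodes the α1 chain of the common type IV network, read 5.24 and 5.12 with shCtrl in MIA PaCa-2, 5.68 and 5.92 with sh1209, and 5.76 and 6.03 with sh1319. Both hairpin groups were above shCtrl, by 0.62 ± 0.14 (limma, adjusted p = 0.0086) and 0.72 ± 0.14 (adjusted p = 0.0024). The rise with sh1209 did not pass with median scaling (0.60, adjusted p = 0.074), without MIA PaCa-2 shCtrl replicate 2 (0.56, adjusted p = 0.055) or without sh1209 replicate 2 (0.50, adjusted p = 0.074). COL4A2 encodes the partner chain of the same molecule, and its probe was detected on 3 of 12 arrays, among them 1 in MIA PaCa-2 (4.74, with sh1319). Its changes in MIA PaCa-2 were -0.01 (95% interval -0.43 to 0.42) and 0.14 (-0.28 to 0.57), and a test of the difference from COL4A1 was not made.

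COL4A1 and COL4A2 lie head to head on chromosome 13, with annotated starts 127 bases apart. The 126 bases between them (GRCh38.p14, chr13:110307158-110307283, plus strand, RefSeq) are shown because both genes are read from this stretch, in opposite directions, while a rise was called at 1 of the pair. Capitals mark 1 match to CCAAT and 1 to GGGCGG.
COL4A1 and COL4A2: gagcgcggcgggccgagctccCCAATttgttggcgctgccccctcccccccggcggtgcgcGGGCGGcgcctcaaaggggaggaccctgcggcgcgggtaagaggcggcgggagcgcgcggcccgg

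COL18A1 encodes type XVIII collagen, a basement membrane proteoglycan whose C-terminal fragment is endostatin, and it passed the test with sh1319 but not with sh1209. Probe 5290132 read 5.56 and 5.33 with shCtrl in MIA PaCa-2, 5.67 and 5.63 with sh1209, and 7.21 and 7.33 with sh1319. The sh1319 arrays stood apart from all others, with a rise of 1.83 ± 0.15 (3.56-fold, limma, adjusted p = 4.9e-06) and a difference of 1.62 ± 0.15 from sh1209 (adjusted p = 1.5e-05). The change with sh1209 was 0.21 (95% interval -0.12 to 0.54). Probe 6590181 was detected on no MIA PaCa-2 array but the sh1319 pair, at 5.36 and 4.89, which was at least 1.34-fold above shCtrl (adjusted p = 0.0064) and at least 1.38-fold above sh1209 (adjusted p = 0.0018). Without sh1319 replicate 1 the rise over shCtrl was 0.46 and did not pass (adjusted p = 0.066).

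COL6A3 encodes the long α3 chain of type VI collagen, and its probe 6250192 read 5.35 and 4.91 with shCtrl, 5.52 and 5.16 with sh1209, and 5.83 and 5.91 with sh1319 in MIA PaCa-2. The sh1209 and shCtrl arrays overlapped, and the rise with sh1319 was 0.73 ± 0.17 (limma, adjusted p = 0.007), or 0.51 (adjusted p = 0.065) without shCtrl replicate 2. The other COL6A3 probe, 2470114, was detected in the sh1209 pair alone (4.94 and 4.91), at least 1.16-fold above shCtrl (adjusted p = 0.0062), and did not pass with median scaling (0.47, adjusted p = 0.15) or no background correction (0.19, adjusted p = 0.051). The 2 probes of COL6A3 therefore passed with different hairpins. Between the hairpins, probe 6250192 was higher with sh1319 by 0.53 (adjusted p = 0.04) and probe 2470114 lower by 0.47 (adjusted p = 0.014). The former did not pass with the replicate block (adjusted p = 0.051) or no filter (adjusted p = 0.065), nor without MIA PaCa-2 sh1319 replicate 1 (0.57), sh1209 replicate 2 (0.34) or sh1319 replicate 2 (0.48). It also did not pass without Capan-1 shCtrl replicate 1 or 2 (adjusted p = 0.055) or Capan-1 sh1209 replicate 1 or 2 (adjusted p = 0.059), which enter through the shared spread. The latter did not pass with no background correction (-0.15), median scaling (-0.38), or without MIA PaCa-2 sh1209 replicate 1 (-0.46), sh1209 replicate 2 (-0.48) or sh1319 replicate 2 (-0.38).

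COL7A1 encodes the anchoring fibrils that tie basement membrane to stroma. It was undetected on the shCtrl arrays of MIA PaCa-2 and read 4.87 and 5.08 with sh1319, at least 1.20-fold higher (limma, adjusted p = 0.037). This call was lost without any 1 of the 4 arrays compared, MIA PaCa-2 shCtrl replicate 1 (0.58), shCtrl replicate 2 (0.65), sh1319 replicate 1 (0.72) or sh1319 replicate 2 (0.51), and with no background correction, median scaling and no filter.

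In Capan-1, COL9A2, COL4A5, COL16A1 and COL6A1 passed with at least 1 hairpin. COL9A2 encodes a chain of type IX collagen, which decorates cartilage fibrils, and was not detected on the shCtrl arrays (4.41 and 4.34). It read 6.13 and 6.36 with sh1209 and 4.61 and 4.73 with sh1319, so that the sh1209 pair stood alone. The sh1209 level was at least 3.13-fold that of shCtrl (limma, adjusted p = 1.3e-06), and sh1319 lay 1.58 ± 0.12 below sh1209 (adjusted p = 8.3e-06). This bound holds for the main background correction only. The fitted change with sh1209 was 1.87, or 0.72 with no background correction and 1.01 with an offset of 50, past the test in each case. No MIA PaCa-2 array detected COL9A2. Of the chains that join it, all 4 COL9A1 probes were undetected throughout, and COL9A3 was detected on 1 shCtrl and 1 sh1319 array of Capan-1 with changes of -0.26 and 0.02 that did not pass.

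The 250 bases before the start of COL9A2 (GRCh38.p14, chr1:40317287-40317536, minus strand, RefSeq) are given as the largest rise in Capan-1, with 3 matches to GGGCGG in capitals. The last pair of matches overlap and lie on the opposite strand (CCGCCC).
COL9A2: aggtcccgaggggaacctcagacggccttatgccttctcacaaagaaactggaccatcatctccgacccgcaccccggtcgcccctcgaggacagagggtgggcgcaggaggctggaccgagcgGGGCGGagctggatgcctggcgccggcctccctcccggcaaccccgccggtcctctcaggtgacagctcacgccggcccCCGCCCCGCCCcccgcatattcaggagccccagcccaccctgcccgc

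COL4A5 encodes the α5 chain of type IV collagen and is the gene on the X chromosome that is mutated in Alport syndrome. Of its 2 probes only 270706 was tested, and it read 4.50 and 4.95 with shCtrl in Capan-1, 5.46 and 5.38 with sh1209, and 5.56 and 5.76 with sh1319. All 4 FAK hairpin arrays were above both shCtrl arrays, of which 1 detected the probe, and the rises were 0.70 ± 0.15 (limma, adjusted p = 0.0068) and 0.94 ± 0.15 (adjusted p = 0.0015). It was the member that rose with both hairpins in Capan-1, although the rise with sh1209 was 0.48 without Capan-1 shCtrl replicate 1 (adjusted p = 0.062) and 0.66 without sh1209 replicate 1 (adjusted p = 0.052). No MIA PaCa-2 array detected it, and its neighbour and partner chain COL4A6, like COL4A3 and COL4A4, was not detected on any array.

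The 250 bases before the COL4A5 start (GRCh38.p14, chrX:108439588-108439837, plus strand, RefSeq) are shown as the member called with both hairpins in Capan-1. They hold 2 matches to CCAAT, 1 on each strand, in capitals, and none to the other letters searched.
COL4A5: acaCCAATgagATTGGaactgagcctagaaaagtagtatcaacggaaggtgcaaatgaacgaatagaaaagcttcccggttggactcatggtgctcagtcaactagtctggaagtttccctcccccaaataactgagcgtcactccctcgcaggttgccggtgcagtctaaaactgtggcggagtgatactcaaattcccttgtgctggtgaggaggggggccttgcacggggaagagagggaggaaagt

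COL16A1 encodes a collagen that associates with fibrils, and in Capan-1 it read 5.08 and 5.06 with shCtrl, 5.95 and 6.10 with sh1209, and 5.72 and 5.45 with sh1319. The FAK hairpin arrays were above shCtrl, and the rise with sh1209 was 0.96 ± 0.21 (limma, adjusted p = 0.0089). The call was lost without Capan-1 shCtrl replicate 2 (0.95, adjusted p = 0.056) or sh1209 replicate 2 (0.89, adjusted p = 0.074). The change with sh1319 was 0.52 (95% interval 0.06 to 0.98, adjusted p = 0.14), and 0.76 with median scaling (adjusted p = 0.019).

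COL6A1, the α1 chain of type VI collagen, was higher with sh1319 in Capan-1. It read 4.55 and 4.67 with shCtrl, 4.52 and 4.66 with sh1209, and 5.56 and 5.61 with sh1319, and the sh1319 pair did not overlap the others. The rise was 0.97 ± 0.16 (limma, adjusted p = 0.002) and the difference from sh1209 1.00 ± 0.16 (adjusted p = 0.0019). In MIA PaCa-2 the probe read 5.18 and 4.64 with shCtrl and 5.30 to 5.39 on the 4 FAK hairpin arrays, with changes of 0.40 and 0.44 that did not pass. Without MIA PaCa-2 shCtrl replicate 1 they were 0.67 (adjusted p = 0.0099) and 0.71 (adjusted p = 0.0048). COL6A2, the gene next to it on chromosome 21 and its partner in type VI collagen, was detected on 1 array.

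**Figure D3:**
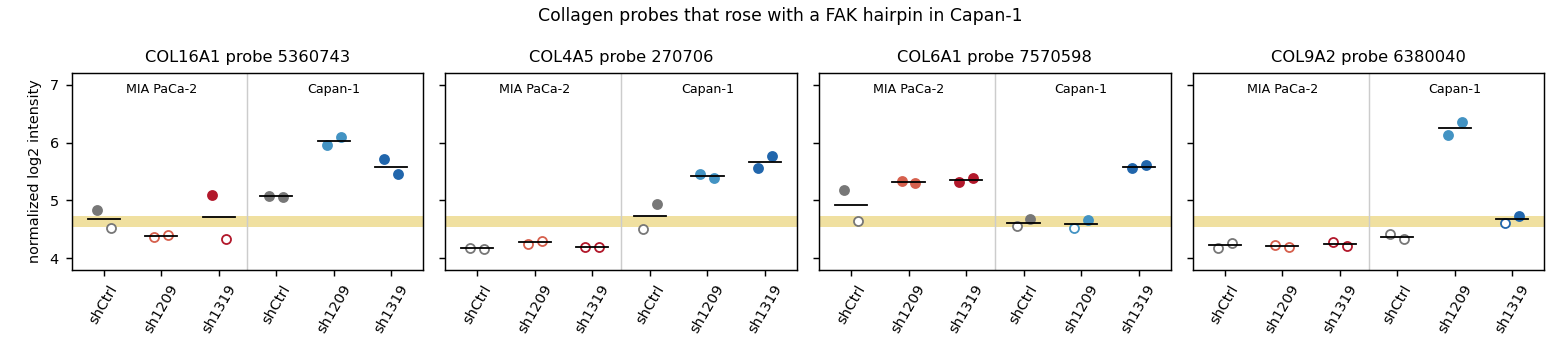
The normalized log2 intensity of each array is plotted for the 4 collagen probes that rose with a FAK hairpin in Capan-1, with filled points where the probe was detected, open points where it was not, black lines for means of 2 arrays and a yellow band for the lowest detected signal of the arrays. COL4A5 is raised with both hairpins, COL9A2 to 6.13 and 6.36 with sh1209, and COL6A1 to 5.56 and 5.61 with sh1319.

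The mean response to both hairpins was next compared between the lines. Of the 27 probes 10 differed in response (37.0%, against 14.4% of all tested probes), 7 with the larger change in MIA PaCa-2 and 3 with the larger change in Capan-1. At COL1A2 the response in MIA PaCa-2 exceeded that in Capan-1 by 3.58 ± 0.14 at probe 6060612 and by 3.35 ± 0.27 at probe 4040671, and at COL3A1 by 3.11 ± 0.16 (limma, adjusted p = 3.8e-08, 8.7e-06 and 3.3e-07). At COL17A1 the differences were 2.26 ± 0.22 and 1.79 ± 0.18 (adjusted p = 3.7e-05 and 5.8e-05), at COL5A2 1.89 ± 0.16 (adjusted p = 1.5e-05) and at COL18A1 probe 5290132 0.86 ± 0.19 (adjusted p = 0.0095). The last did not pass without Capan-1 shCtrl replicate 1 (0.75). At that COL18A1 probe the change in MIA PaCa-2 was 0.21 with sh1209, which did not pass, and 1.83 with sh1319. At the other COL18A1 probe, 6590181, the difference between the lines was 0.28 and did not pass (adjusted p = 0.38). In the other direction COL9A2 differed by -1.07 ± 0.15 (limma, adjusted p = 0.00051), COL16A1 by -0.86 ± 0.26 (adjusted p = 0.045) and COL4A5 by -0.76 ± 0.18 (adjusted p = 0.015). The COL9A2 change in Capan-1 was 1.87 with sh1209 and 0.30 with sh1319, and the latter did not pass. The COL4A5 difference was -0.21 with no background correction (adjusted p = 0.1) and -0.53 without Capan-1 shCtrl replicate 1 (adjusted p = 0.073). The COL16A1 difference did not pass with no filter, without MIA PaCa-2 shCtrl replicate 1 (-0.70) or sh1209 replicate 1 (-0.85) or 2 (-0.86), or without any 1 of the 6 Capan-1 arrays, shCtrl, sh1209 or sh1319 replicate 1 or 2 (-0.92 to -0.79). Fitted differences of probes undetected in a whole line depend on the offset, and PTK2 probe 450253 fell by 1.17 more in MIA PaCa-2 (adjusted p = 0.00021), whereas the difference at PTK2 probe 2680750 was 0.47 and did not pass (adjusted p = 0.15).

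With shCtrl alone, 10 collagen probes differed between the lines, or 37.0%, against 42.1% of all tested probes, and 8 were higher in MIA PaCa-2, or 29.6%, against 22.5%. In MIA PaCa-2, COL5A2 was at least 8.55-fold higher (7.79 and 7.60, undetected in Capan-1, limma, adjusted p = 9.5e-10). COL1A2 probe 6060612 was at least 2.83-fold higher (adjusted p = 8.4e-08), COL18A1 probe 5290132 at least 1.79-fold (adjusted p = 6e-05), COL4A1 at least 1.49-fold (adjusted p = 0.00026) and COL6A3 probe 6250192 at least 1.45-fold (adjusted p = 0.0065). These bounds hold for the main background correction only. With no correction the fitted differences were 1.74, 0.73, 0.44, 0.30 and 0.21 in this order, COL5A2 first, each past the test. The other tested probes of COL18A1 (6590181, 0.11) and COL6A3 (2470114, -0.03) did not pass (adjusted p = 0.6 and 0.86). COL17A1 probe 990372 differed by 2.21 ± 0.18 (adjusted p = 8.4e-07), probe 2120270 by 0.72 ± 0.15 (adjusted p = 0.0018) and COL1A2 probe 4040671 by 0.97 ± 0.22 (adjusted p = 0.0031), the last 0.58 without Capan-1 shCtrl replicate 1. COL11A2 encodes a chain of the fibrillar type XI collagen, and its probes 1450392 and 3180471 were not detected on any array. Its probe 6770519 was at least 1.06-fold higher in Capan-1 (4.84 and 4.76, limma, adjusted p = 0.018), and COL4A5 at least 1.01-fold (adjusted p = 0.0091). Of these calls 3 were lost without 1 array, namely COL11A2 without MIA PaCa-2 shCtrl replicate 1 or 2 (-0.37) or Capan-1 shCtrl replicate 1 (-0.33), which was also lost with no background correction (-0.12), an offset of 50 (-0.16) and median scaling (-0.37), COL4A5 without Capan-1 shCtrl replicate 2 (-0.33) and COL6A3 without MIA PaCa-2 shCtrl replicate 1 (0.44).

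Between the hairpins, 8 collagen probes differed in MIA PaCa-2 (29.6%, against 22.6% of all tested probes), 6 higher with sh1319 and 2 higher with sh1209. In Capan-1 it was 2 (7.41%, against 11.3%), COL6A1 and COL9A2, one in each direction.

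The remaining tested probes passed against shCtrl in no comparison. They were COL5A1, COL11A1 and COL11A2 among fibrillar chains, both COL12A1 probes, COL14A1 and COL9A3 among the collagens associated with fibrils, COL13A1 and COL23A1 among the transmembrane ones, and COL4A2 and COL8A2. The changes that did not pass, over all tested members, ranged from -0.59 to 0.40 with sh1209 and from -0.52 to 0.44 with sh1319 in MIA PaCa-2, and from -0.53 to 0.31 and -0.51 to 0.52 in Capan-1. The lowest was COL12A1 probe 3060095, which encodes a collagen of dense connective tissue and whose shCtrl arrays in MIA PaCa-2 read 4.33 and 5.50. Without the first of these the changes were -1.18 (adjusted p = 0.00048) and -1.10 (adjusted p = 0.00045), so that this probe turns on 1 array. In Capan-1 the change of COL12A1 probe 4850129 with sh1319 was -0.51, or -0.80 without shCtrl replicate 2. COL8A2, a network collagen of endothelial basement membrane, read 5.37 to 5.97 in MIA PaCa-2 and 4.92 to 5.73 in Capan-1. Its changes in Capan-1 were -0.53 with sh1209 and -0.39 with sh1319, which did not pass (limma, adjusted p = 0.062 and 0.19). The fall with sh1209 passed with the stricter filter (limma, adjusted p = 0.043).

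By structural class, the 7 tested fibrillar probes gave 4 rises with each hairpin in MIA PaCa-2, and the 4 transmembrane probes gave 2 with each. The 3 basement membrane network probes gave 1 in each of the 4 comparisons, COL4A1 in MIA PaCa-2 and COL4A5 in Capan-1. The 6 probes of collagens associated with fibrils gave 2 with sh1209 in Capan-1, and the 2 multiplexin probes, both COL18A1, gave 2 with sh1319 in MIA PaCa-2. The classes hold only probes past the detection filter, a gene with more than 1 probe is counted more than once, and of all tested probes 9.05% and 12.2% were higher with sh1209 and sh1319 in the MIA PaCa-2 comparisons, and 8.14% and 6.95% in those of Capan-1.

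Collagen chains are modified, folded, carried and cross-linked by a set of enzymes and chaperones, and 37 such genes with 62 probes were on the array, of which 36 probes of 28 genes were tested. In MIA PaCa-2, 4 rose and 4 fell with sh1209 (22.2% in all, against 18.0% of all tested probes), and 15 rose and 1 fell with sh1319 (44.4%, against 24.3%). In Capan-1, 12 rose and 4 fell with sh1209 (44.4%, against 16.8%), and 11 rose and 1 fell with sh1319 (33.3%, against 13.7%). The median log2 change was -0.01, 0.18, 0.10 and 0.00 in these 4 comparisons. Between the hairpins in MIA PaCa-2, 14 were higher with sh1319 and 0 lower, where 22.6% of all tested probes passed in either direction, and 1 was lower at an unadjusted p under 0.05 in limma. In Capan-1, 5 were higher with sh1319 and 8 lower (36.1% in all, against 11.3% of all tested probes).

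LEPREL1, a prolyl 3-hydroxylase, passed in the same direction in all 4 comparisons. It read 5.90 and 6.20 with shCtrl in MIA PaCa-2, 6.95 and 6.82 with sh1209, and 7.89 and 7.92 with sh1319, and in Capan-1 6.38 and 6.37, 7.10 and 7.23, and 7.52 and 7.24. No FAK hairpin array was as low as a shCtrl array of its line, and the rises in MIA PaCa-2 were 0.83 and 1.86, those in Capan-1 0.79 and 1.00 (limma, adjusted p = 0.0015, 2.1e-06, 0.0025 and 0.00075). PCOLCE2, an enhancer of the proteinase that trims the procollagen C-terminus, fell in all 4, from 7.21 and 7.15 to 5.77 and 5.63 with sh1209 and 6.67 and 6.79 with sh1319 in MIA PaCa-2. In Capan-1 it went from 6.46 and 6.44 to 5.01 and 4.90, and 5.60 and 5.34. The changes were -1.48, -0.45, -1.49 and -0.98 (limma, adjusted p = 9.1e-06, 0.021, 1.2e-05 and 0.00046).

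Among the other genes that passed with both hairpins of MIA PaCa-2 were GLT25D1, a collagen galactosyltransferase (0.93 and 0.81, limma, adjusted p = 0.00037 and 0.00059), and SEC24D, a coat protein of the vesicles that export procollagen (0.73 and 1.64, adjusted p = 0.04 and 0.00021). P4HA2, the catalytic subunit of a prolyl 4-hydroxylase, passed with both at probe 7570379 (0.45 and 0.97, adjusted p = 0.021 and 0.0001). Its probes 270408 and 4010064 gave -0.12 and -0.09 with sh1209 there, which did not pass, so the probes of this gene disagree. In Capan-1 these same 2 probes rose with both hairpins (1.17 and 1.23 with sh1209, 0.56 and 0.47 with sh1319), and probe 7570379 was not detected. P4HB, the other subunit of that enzyme, rose by 0.97 and 0.70 in Capan-1. LOXL4, a lysyl oxidase that cross-links collagen, rose there by 1.58 and 1.07, and SC65, also on the biosynthesis list, by 0.91 and 0.62. In MIA PaCa-2 the SC65 changes were -0.89 (sh1209) and 0.96 (sh1319), both past the test (limma, adjusted p = 0.0034 and 0.0014). Calls at biosynthesis genes were not checked under other processing settings.

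**Figure D4:**
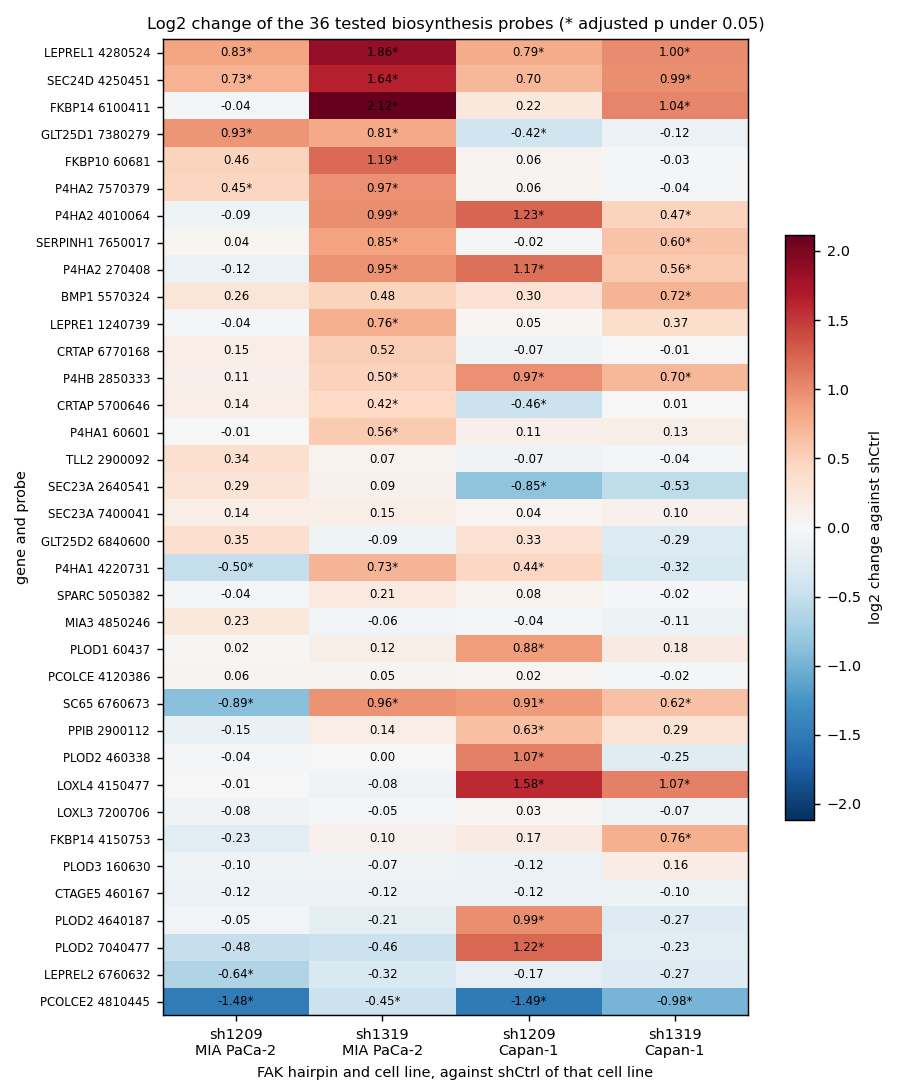
The fitted log2 change against shCtrl of the same line is written for the 36 tested probes of collagen biosynthesis genes, with an asterisk where the adjusted p was under 0.05. LEPREL1 is raised and PCOLCE2 lowered in all 4 columns, while the sh1209 column of MIA PaCa-2 has 8 asterisks against 16 for sh1319.

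Of 10 collagen receptor genes with 21 probes, 16 probes of 9 genes were tested. In MIA PaCa-2, 3 rose with sh1209 (18.8%, near the 18.0% of all tested probes) and 0 passed with sh1319 in limma (against 24.3%), with 6 at an unadjusted p under 0.05. In Capan-1, 4 rose with sh1209 (25.0%, against 16.8%) and 2 fell with sh1319 (12.5%, near the 13.7% of all tested probes). No probe of a receptor passed with both hairpins of a line. Between the hairpins in Capan-1, 7 of the 16 were lower with sh1319 than with sh1209 and 0 higher (43.8%, against 11.3% of all tested probes). In MIA PaCa-2, 1 was higher and 1 lower with sh1319 than with sh1209 (12.5%, against 22.6%).

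ACTA2, a smooth muscle actin on the fibroblast list, rose in MIA PaCa-2, from undetected with shCtrl (4.36 and 4.31) to 5.79 and 5.69 with sh1209 and 7.15 and 7.17 with sh1319 (limma, adjusted p = 6.9e-06 and 1.6e-08). The summed linear signal of the 11 fibroblast marker probes includes ACTA2 and the background of undetected probes, so it does not measure the other listed genes. This sum was 212 to 218 with shCtrl, 249 to 251 with sh1209 and 334 to 339 with sh1319 in MIA PaCa-2. In Capan-1 it was 270 to 278, 292 to 293 and 311 to 315. In MIA PaCa-2, 1 of the 7 listed genes, ACTA2, was detected in both arrays of each FAK hairpin group and 0 with shCtrl. In Capan-1 the number of listed genes was 1, 1 and 2. PDGFRA, PDGFRB, THY1 and FAP remained at background in all of them, DCN was detected on 1 array, and LUM in the Capan-1 sh1319 pair alone. The part of the fibroblast list in the rises of the fibrillar collagen probes was not tested.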

How the data were processed

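Expression was read on 12 Illumina HumanHT-12 v4 arrays of 1 chip, 2 for each hairpin (shCtrl, sh1209, sh1319) in each line. The authors deposited each probe's intensity and detection p-value, not normalized, with 28 empty columns. GenomeStudio 2011.1 is listed in the submitters' processing notes, with its role not given in the sources used here. After leaving out 92 control rows, 47228 probes remained. Background was corrected with nec in limma 3.58.1 (R 4.3.3, normexp from detection p-values, offset 16), followed by log2 and quantile normalization. Probes with detection p under 0.05 on at least 2 arrays were tested (24207), with the 6 group means fitted by lmFit and eBayes over all arrays (6 residual degrees of freedom), and p-values adjusted by Benjamini-Hochberg over all tested probes. The number of arrays, 2 per group, limits the precision. Errors are SE of the fit, and a bound ("at least") sets the brighter group against the lowest detected signal of the arrays. Such a bound holds for the main background correction (offset 16) only, and a p-value beside it tests the fitted change. On simulated data, 95% of 200 changes of 1.5 among 24207 probes in the sh1209 groups of MIA PaCa-2 were recovered, and 6.40% of calls were false. These changes were all upward, with independent noise and all other probes unchanged, so recovery of smaller changes was not measured. In the data 18.0% of tested probes passed in that comparison, in both directions.

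Values were given for PTK2, for collagen genes that passed in a comparison and for their partner chains, each probe on its own. From the biosynthesis and receptor lists, members that passed with both hairpins of a line in the same direction were named. KRT19, ACTA2, DCN and LUM, among the marker genes, were chosen after their values were seen. Members and lists were chosen with earlier results of these data known. Promoter windows and neighbours came from RefSeq (GRCh38.p14). Alternatives were no background correction, an offset of 50, median scaling, other filters, leaving out each array, a replicate block, a detection p under 0.01 and the methods' t-test. Single calls were followed through the alternatives for collagen and PTK2 probes only, not for biosynthesis, receptor or marker genes.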

Additional observations from a re-analysis of the deposited data

Results flagged for a closer look

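At 10 collagen probes and at 1 of 2 tested PTK2 probes, MIA PaCa-2 and Capan-1 responded differently to FAK knockdown (mean of both hairpins), by limma's test of the difference itself. As the response in MIA PaCa-2 minus that in Capan-1, on the log2 scale, the difference was 3.58 for COL1A2 probe 6060612, 3.35 for COL1A2 probe 4040671 and 3.11 for COL3A1. It was 2.26 for COL17A1 probe 990372, 1.79 for COL17A1 probe 2120270, 1.89 for COL5A2 and 0.86 for COL18A1 probe 5290132. At the other COL18A1 probe, 6590181, it was 0.28 and did not pass. It was -1.07 for COL9A2, -0.86 for COL16A1 and -0.76 for COL4A5, and -1.17 for PTK2 probe 450253. The COL9A2 change in Capan-1 was 1.87 with sh1209 and 0.30 with sh1319, and the latter did not pass. Of 18 alternatives, the COL16A1 difference was lost under 10, that of COL4A5 under 2 and that of COL18A1 probe 5290132 under 1. With 2 arrays in each group no array was examined as an outlier.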

How the results depend on the processing

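Of 54 collagen calls over the 8 comparisons, with the methods' t-test aside, 37 passed under every alternative that gave a value, 17 were lost under at least 1, and 0 changed sign. Log2 changes of dim probes depend on the background, since 41 of the 54 moved by over 1.5 times with no background correction and 32 with an offset of 50. With median scaling the median of all tested probes was 0.11 with sh1319 in Capan-1 against -0.00, and there 1936 of 2270 calls over all probes were higher, against 1682 of 3322. With sh1209 there, 2009 of 2459 were higher, against 1971 of 4074, with sh1319 in MIA PaCa-2 2562 of 3846, against 2964 of 5887, with sh1319 against sh1209 there 2271 of 3477, against 2705 of 5478, and for the difference between the lines in response 581 of 1834, against 1753 of 3475. The methods' t-test with Benjamini-Hochberg adjustment called 4 collagen probes between the lines and 0 in the 6 comparisons of hairpins, and unadjusted it called 6 between the lines. The stricter filter left 1 call between the hairpins in Capan-1, because COL9A2 was not tested. Without 1 array in turn, the count between the hairpins in MIA PaCa-2 ranged from 5 (without sh1209 replicate 2) to 8. At a detection p under 0.01, 5 collagen probes were detected in both Capan-1 sh1319 arrays, against 9. The replicate number as a block left 7 calls between the hairpins in MIA PaCa-2, against 8, and changed no other collagen call. The deviations of same-numbered arrays correlated at -0.06 to 0.16 over 15 pairs of groups, so the number was taken as a name only.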
